A study of Homo sapiens with 13 samples.

Results

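The first hour of stimulation with a serum mixture was examined in MCF10A cells, a spontaneously immortalized line from normal human mammary epithelium. Of the 13 microarrays of the series, 4 were used for it: the arrays of cells given the mixture for 20, 40 and 60 min, and the single array of unstimulated cells. They were taken by their titles, and no measured value entered the choice. All cells had first been deprived of serum for 24 h. What the submitters call serum is a mixture of insulin, cholera toxin, hydrocortisone and 5% heat-inactivated horse serum, so its components cannot be told apart here. The other arrays served for comparison only: serum at 120, 240 and 480 min, and epidermal growth factor (EGF, 10 ng/ml) at 20, 40, 60, 120, 240 and 480 min. The array titled 20 min of EGF carries a description that says 40 min, and the title was followed. A single line was used, no separate cultures are stated, and each time point has 1 array. The 3 serum arrays are therefore 3 times and not repeats of 1 time. Except where time is fitted as a block or arrays are left out, every limma p-value below rests on the spread within groups, pooled over all 13 arrays. Each stimulated group holds 3 times, so that spread includes change over time. It is neither the spread of repeats nor that of the 3 serum arrays alone. Only the fit on the 4 arrays alone takes its spread from the 3 serum arrays, with 2 residual degrees of freedom.

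Cells that leave a serum-starved state first switch on immediate-early genes, whose transcription needs no new protein because the factors that drive them, such as SRF and CREB, are already in the nucleus. Many of their products are transcription factors, and others are phosphatases, inhibitors and mRNA decay factors that shut signalling down again. Cholera toxin keeps adenylyl cyclase active and so raises cAMP, which activates CREB through protein kinase A. Hydrocortisone binds the glucocorticoid receptor, which switches on its own direct targets, and insulin acts through PI3 kinase.

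Values are MAS5 signals, a linear brightness in arbitrary units, and differences are on the scale log2(signal + 6), serum array minus unstimulated array. That scale understates the change of dim genes. After a filter on low values, 7731 genes were tested, each by 1 probe set. The median difference from the unstimulated array over these genes was 0.004 at 20 min, -0.044 at 40 min and -0.037 at 60 min. Signals under 20 made up 33.3% of probe sets at 20 min, 39.3% at 40 min and 37.9% at 60 min of serum, and 36.7% in unstimulated cells. On the serum arrays the actin 3′ to 5′ ratio, a sign of RNA length, was 1.42, 1.42 and 1.49, against 1.79 on the unstimulated array, and the part of this gap in the results was not tested. The epithelial label held: 7 basal markers such as KRT5 and KRT14 had a summed signal of 24463 to 29047.1 on the serum arrays, against 27238.8 in unstimulated cells. The 10 luminal markers summed to 8235.5 to 10227 with serum and 8835.2 without, with KRT19 under 20 on all 4 arrays. Of 12 markers of other cell types, 6 (ADIPOQ, CD3E, COL3A1, PTPRC, VWF and LUM) were under 20 on all 4 arrays, and the 12 summed to 660.7 to 778.5 with serum and 610.3 without. Most of that sum came from DCN (286.6, 405.4 and 362.5 with serum, 261.9 without) and CD14 (286.2, 186.9 and 199, against 178). In whole-culture RNA, fewer cells of a type and less RNA per cell cannot be told apart.

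The genes furthest above unstimulated cells in the first hour encoded transcription factors, signalling inhibitors, chemokines and secreted matrix proteins. On all 3 serum arrays 44 genes were at least 2-fold higher than in unstimulated cells (0.569% of the genes tested), with a median mean difference of 1.73. Another 26 genes were at least 2-fold lower on all 3 (0.336% of the genes tested), with a median mean difference of -1.46. Of the 44 higher genes, 26 belonged to the 27 gene lists described below, against 3.75% of all genes tested. The lists were drawn up with earlier results of these data known, so that share is no independent evidence. None of the 26 lower genes was in any list. Without the 20 min array the counts were 78 higher and 71 lower, and without the 40 min array 70 higher. The rule then asks for fewer arrays, so these counts could not fall.

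In a limma model over all 13 arrays, 1 gene rose (0.0129% of the genes tested) and 1 gene fell (0.0129%) at an adjusted p under 0.05. They were DUSP1, a nuclear phosphatase that switches off p38, JNK and ERK, and ZC3H7B, a CCCH zinc finger RNA-binding protein. The model assumes that the lone unstimulated array varies like the stimulated ones. At an unadjusted p under 0.05 there were 706 genes (9.13%), made up of 276 higher genes (3.57%) and 430 lower genes (5.56%), and all 44 and all 26 genes above were among them. An exact permutation test of 3 arrays against 1 has 4 arrangements and cannot go below a one-sided p of 0.25. For every gene other than DUSP1 and ZC3H7B, values per array are therefore given as a description.

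DUSP1 had a signal of 3693.3 at 20 min, 5490.6 at 40 min and 4985.8 at 60 min of serum, against 1123.3 in unstimulated cells. Each serum array lay well above the unstimulated one, and the middle time was the highest. The mean difference was 2.05 ± 0.27 (SE, limma over 13 arrays), a 4.13-fold rise with a limma adjusted p of 0.0333. Another DUSP1 probe set differed by 2.45 on average. The call was lost in 11 of 20 alternatives, among them the 4 arrays alone (limma adjusted p = 0.398) and the fits without serum at 40 min (0.126) or at 60 min (0.0938). The size stayed between 1.93 and 2.25 throughout.

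Promoters of 6 of the 44 higher genes are shown because these genes are textbook targets of CREB, SRF or both or are high in rank, and the motifs of those factors can be read directly. Each is the RefSeq window of GRCh38.p14 from 250 bases before to 50 bases after the gene's start, 5′ to 3′ on the gene's strand. Capitals mark the motifs searched on both strands: the cAMP response element TGACGTCA, its shorter form TGACG (which the full element contains and which reads CGTCA on the other strand), TATAAA, and the CArG box of SRF. The windows are FOSB at chr19:45467746-45468045 (plus strand), FOS at chr14:75278578-75278877 (plus), EGR1 at chr5:138465229-138465528 (plus), DUSP1 at chr5:172771146-172771445 (minus), RGS2 at chr1:192808789-192809088 (plus) and CCN2 at chr6:131951323-131951622 (minus). EGR1 was added after its CArG boxes were seen. The 6 are not the first 6 in rank. ATF3, number 3 by the smallest difference, is not shown, and its windows held no CArG box and neither form of the cAMP response element. IL6, number 8, is not shown either, and its window held the short form.
FOSB: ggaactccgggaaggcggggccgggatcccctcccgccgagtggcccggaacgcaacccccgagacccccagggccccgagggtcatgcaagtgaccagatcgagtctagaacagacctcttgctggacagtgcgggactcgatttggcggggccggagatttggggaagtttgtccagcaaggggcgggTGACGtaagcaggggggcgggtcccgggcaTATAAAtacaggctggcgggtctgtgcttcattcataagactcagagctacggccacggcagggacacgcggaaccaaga
FOS: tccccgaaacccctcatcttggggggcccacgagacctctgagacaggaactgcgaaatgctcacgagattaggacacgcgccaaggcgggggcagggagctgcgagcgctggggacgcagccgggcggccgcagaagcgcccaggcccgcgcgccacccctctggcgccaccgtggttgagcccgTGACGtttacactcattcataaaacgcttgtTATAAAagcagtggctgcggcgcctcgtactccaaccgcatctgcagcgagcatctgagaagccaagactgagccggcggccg
EGR1: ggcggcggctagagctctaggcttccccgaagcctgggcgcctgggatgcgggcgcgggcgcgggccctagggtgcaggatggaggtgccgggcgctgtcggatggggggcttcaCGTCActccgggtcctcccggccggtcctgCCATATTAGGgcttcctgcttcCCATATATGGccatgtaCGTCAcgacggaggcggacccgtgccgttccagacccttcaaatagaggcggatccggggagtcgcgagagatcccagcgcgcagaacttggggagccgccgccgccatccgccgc
DUSP1: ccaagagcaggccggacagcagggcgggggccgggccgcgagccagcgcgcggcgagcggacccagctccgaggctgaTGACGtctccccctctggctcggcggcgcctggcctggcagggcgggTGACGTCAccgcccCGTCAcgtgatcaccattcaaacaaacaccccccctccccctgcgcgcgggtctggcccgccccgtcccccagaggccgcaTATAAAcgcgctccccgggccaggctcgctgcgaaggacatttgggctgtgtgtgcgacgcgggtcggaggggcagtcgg
RGS2: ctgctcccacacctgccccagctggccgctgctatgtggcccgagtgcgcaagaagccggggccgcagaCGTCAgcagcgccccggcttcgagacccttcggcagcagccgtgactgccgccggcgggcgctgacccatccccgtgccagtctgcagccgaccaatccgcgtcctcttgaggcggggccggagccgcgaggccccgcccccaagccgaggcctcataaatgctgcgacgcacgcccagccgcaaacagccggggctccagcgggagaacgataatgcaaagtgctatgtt
CCN2: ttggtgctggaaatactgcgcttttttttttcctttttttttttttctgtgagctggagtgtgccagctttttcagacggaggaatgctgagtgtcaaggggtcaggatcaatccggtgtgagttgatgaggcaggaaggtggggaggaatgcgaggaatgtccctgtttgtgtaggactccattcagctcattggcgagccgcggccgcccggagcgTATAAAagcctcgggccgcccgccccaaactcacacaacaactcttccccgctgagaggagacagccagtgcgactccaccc

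DUSP1 was the only one of the 50 windows of higher genes with the full cAMP response element, and its window held 4 copies of the shorter form, a pair of which overlap the full one. FOSB, FOS and RGS2 each held 1 short form, and EGR1 held 2. EGR1 held 2 CArG boxes, 105 and 83 bases before the start. CCN2 held TATAAA and none of the others. An entry existed for 53 of the 70 genes (36 higher and 17 lower). Over the windows of the higher genes the short form was in 34%, against 43.5% of the 23 windows of lower genes, 32.2% of the promoters of the genes tested and 24.6% of all 35116 promoters. The full element was in 2% of them, against 13% (3 windows) of those of lower genes, 2.95% of those of the genes tested and 1.85% of all. The CArG box was in 4% (EGR1 and HTR4), against 0 windows of lower genes, 1.31% of those of the genes tested and 1.29% of all. TATAAA was in 28% of the windows of higher genes, against 4.35% of those of lower genes, 6.52% of those of the genes tested and 11.5% of all promoters. A match is a stretch of letters, and its absence says only that the letters are not in this window.

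Among the EGR, FOS and JUN factors, the DNA-binding proteins that make up the first transcriptional wave, 5 of 12 tested members were at least 2-fold higher on all 3 arrays, and 10 were higher on all 3 at any size (25.9% of all genes tested were). The list's median mean difference was 0.73, against -0.03 over all genes tested. FOSB, a FOS-type partner of JUN in AP-1, had signals of 172.9, 246.8 and 173.9 at 20, 40 and 60 min, against 2.6 in unstimulated cells. It was first of all genes by both rankings, with a mean difference of 4.55 and a smallest of 4.38 (limma SE 1.02, adjusted p = 0.141). The unstimulated signal is near the bottom of the scale, so the size depends on the offset. It ran from 3.04 to 4.63 across the 18 alternatives that tested the gene. With no offset FOSB fell below the filter, so the range leaves that setting out.

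FOS was at 789.6, 932.4 and 142.4 in serum, against 33.1 in unstimulated cells. Its signal was high at 20 and 40 min and far lower at 60 min, with an SD of the 3 differences of 1.47 against a median of 0.36 over the 44 higher genes. EGR3, a zinc finger factor close to EGR1, was at 153, 221.9 and 253.6, against 11.5 without serum (mean difference 3.59). EGR1 was at 353.5, 644.8 and 685.7, against 150.7 (mean difference 1.80), and its other probe set gave 2.14. Both EGR genes were highest at 60 min, when FOS was lowest. JUN, the AP-1 partner of FOS, had signals of 615.2, 998.6 and 722, against 277.1 without serum, and it was at least 2-fold higher on every serum array by 3 of its 4 probe sets (the other had a smallest difference of 0.97). JUNB (mean difference 0.74), FOSL1 (0.73) and EGR4 (0.70) were higher by less, while the EGR corepressors NAB1 (-0.14) and NAB2 (-0.15) differed little from unstimulated cells.

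**Figure D1:**
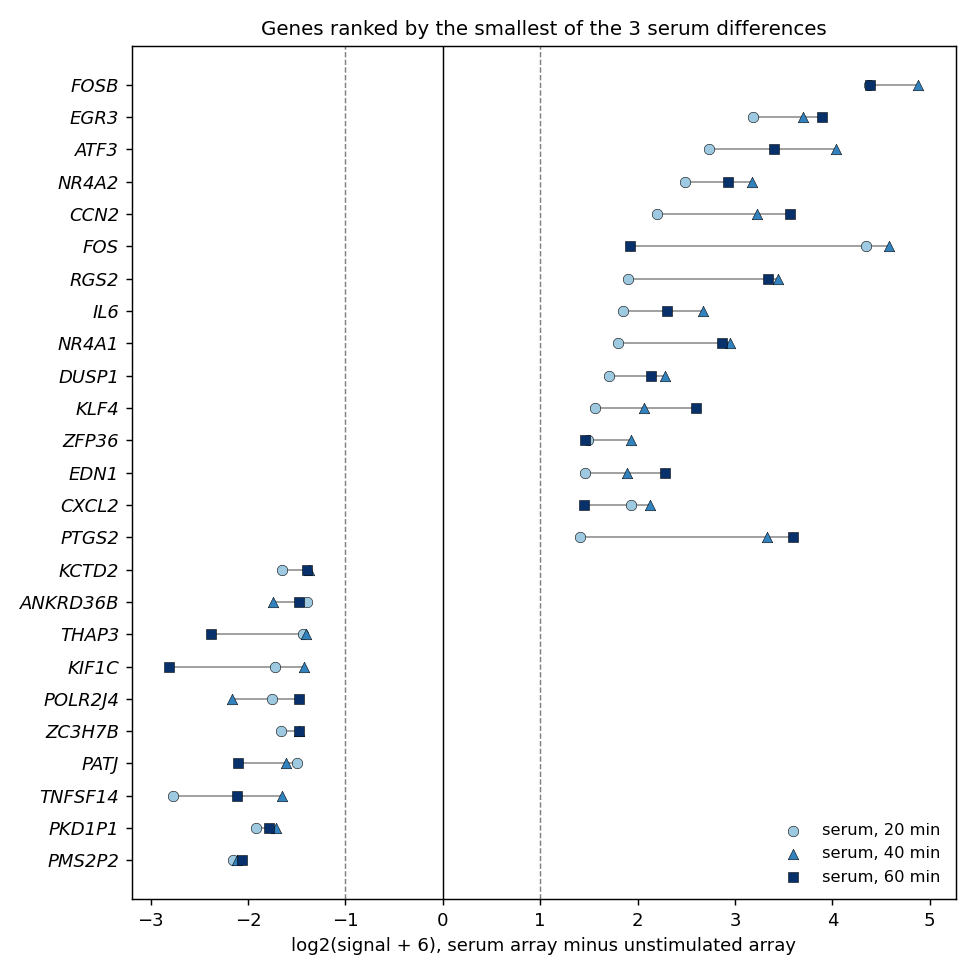
Differences from the unstimulated array on the log2(signal + 6) scale (horizontal axis) for the 15 higher and 10 lower genes first by the smallest of the 3 differences. Each point is 1 serum array (circle 20 min, triangle 40 min, square 60 min), the grey line spans the 3, and dashed lines mark 2-fold. FOSB is at the top with all 3 points above 4.3, FOS has the widest spread of the early factors, and the lower genes lie between about -1.4 and -2.8.

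ATF3, a stress-induced bZIP repressor, stood apart from its family. It had signals of 177.5, 449.8 and 286.4 in serum, against 21.7 in unstimulated cells, with a mean difference of 3.39. The other 11 ATF, MAF and C/EBP factors lay between -0.60 (MAFG) and 0.85 (MAFF), and the list's median was 0.22. ATF4 (-0.25) and DDIT3 (-0.30), which often accompany ATF3 in the integrated stress response, were lower on all 3 serum arrays. The 8 tested genes of that response had a median of -0.17.

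The NR4A nuclear receptors, orphan receptors that are governed by their own abundance, were next. NR4A2 was at 89.9, 147.4 and 124.6, against 11.1 in unstimulated cells (mean difference 2.86), and its other probe sets differed by 1.54 and 2.18. NR4A1 was at 85.8, 198.1 and 187.2, against 20.4 (2.54). In both, the 20 min array was the lowest of the 3 serum arrays and still far above the unstimulated one. KLF4, a Kruppel-like factor that restrains proliferation in epithelia, climbed through the hour with 278.8, 400.5 and 582, against 90.8 without serum (2.08). With the other NR4A, KLF and early factors, 3 of 18 tested were at least 2-fold higher on all 3 arrays, 12 were higher at any size, and the median was 0.66. KLF6 lay just under the 2-fold rule (278.2, 400.6 and 375.6, against 143.2). MYC, a growth regulator known as an early serum gene in fibroblasts, was at 2454.9, 3446.8 and 3268.9, against 2494.1 in unstimulated cells. Its 20 min array lay at the unstimulated level, and its difference of 0.28 ± 0.35 (SE) did not pass the limma test (adjusted p = 0.875).

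Genes known to respond to cAMP had the next highest median after the cytokines, 1.07 over 11 tested genes of the 17 on the array. Of the 11, 5 were at least 2-fold higher on all 3 serum arrays. FOSB, NR4A1 and NR4A2 are among them. RGS2, which speeds GTP hydrolysis on Gq-type G proteins and so damps receptor signalling, had signals of 454.5, 1338.7 and 1250.6, against 117.7 in unstimulated cells (mean difference 2.89). PTGS2, the inducible cyclooxygenase, was at 103.8, 407.4 and 494.9, against 35.2 (2.78). In both the 20 min array was the lowest of the serum arrays, with differences of 1.90 for RGS2 and 1.41 for PTGS2. The 40 and 60 min arrays were far higher. PTGER4, the EP4 prostaglandin receptor that signals through cAMP, followed the same course with 196.5, 631.4 and 922.2, against 94.7 (2.29). SIK1, a kinase that restrains CREB coactivators, was at 605.8, 821.4 and 1067.2, against 382.8 (1.07). CREM (0.29), PDE4B (0.18) and AKAP12 (0.16) differed less, and SLC2A3 was lower (-0.72).

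**Figure D2:**
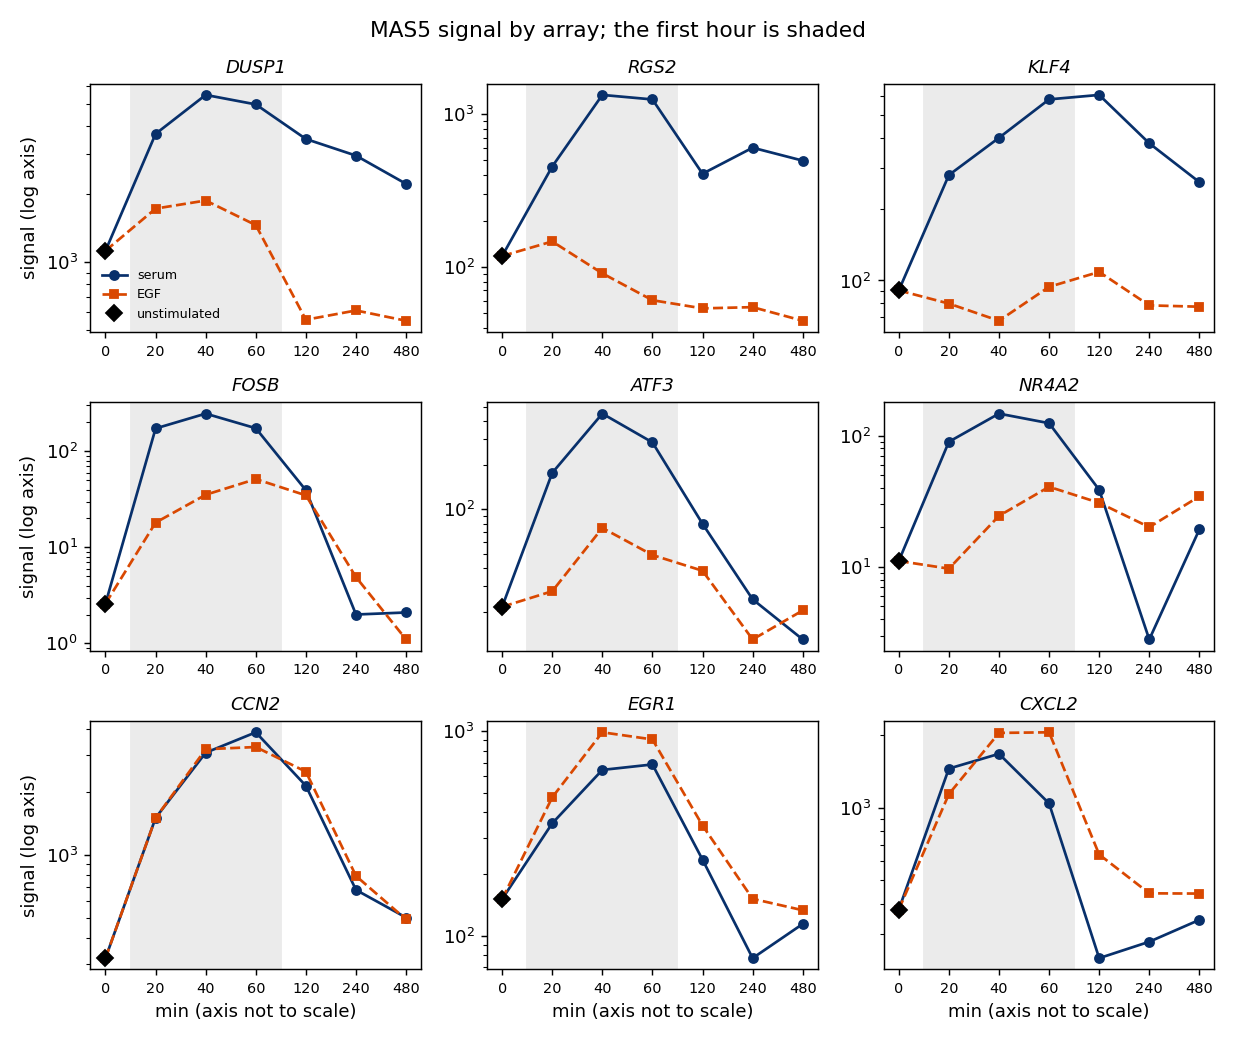
MAS5 signal (vertical log axis, arbitrary units) of 9 genes on each array, by minutes of stimulation with serum (solid blue) or EGF (dashed orange), both starting from the same unstimulated array (black diamond); the first hour is shaded and the time axis is not to scale. DUSP1, RGS2 and KLF4 are higher with serum than with EGF throughout the first hour, while the CCN2 lines lie close together over that hour.

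Feedback genes of MAP kinase signalling were split. DUSP5, a nuclear ERK phosphatase, was at 131.3, 199.3 and 269.3 in serum, against 49.6 in unstimulated cells (1.83). DUSP10, which acts on p38 and JNK, was at 208.7, 226.8 and 262.1, against 110.6 (1.03). DUSP6, the cytoplasmic ERK phosphatase, was high on the 20 min array only (740.7, 331.6 and 358.7, against 366.9), and DUSP7 was lower on all 3 (-0.40). Of the 9 phosphatases tested, DUSP1 alone rose by the limma test, 2 were at least 2-fold higher on all 3 arrays, and the median was 0.28. Among the Sprouty, SPRED and SOCS type inhibitors, 1 of 12 was at least 2-fold higher on all 3: TRIB1, a pseudokinase that steers substrates to degradation, at 278, 675.3 and 782.1, against 133.5 (1.94). SPRY2 (0.37) was slightly higher, and SPRY4 (-0.35) and SOCS1 (-0.66) were lower on all 3 arrays.

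Glucocorticoid receptor targets gave 4 of 18 members at least 2-fold higher on all 3 arrays and a median of 0.48. DUSP1 is one of them. SGK1, a kinase that raises ion transport and survival signalling, was at 1112.1, 1856.7 and 1868.4, against 451.5 in unstimulated cells (1.78). ZFP36, which binds AU-rich elements and speeds decay of early mRNAs, was at 441.7, 603.9 and 434.6, against 153.8 (1.63). CDKN1C, a CIP/KIP inhibitor of cyclin-dependent kinases, was at 65.1, 67.9 and 106.4, against 25.9 (1.40). Its other probe sets past the filter differed by 0.44, 0.85 and 1.99 on average, and only the last was at least 2-fold higher on all 3 arrays. These genes differ in course: ZFP36 was highest at 40 min, CDKN1C at 60 min. ZFP36 was also the only one of 9 mRNA decay and BTG/TOB genes past the 2-fold rule, in a list with a median of 0.35. TSC22D3 (0.46) lay near the list's median, FKBP5 (0.16) differed less, and CEBPD was lower on all 3 arrays (-0.36). The 8 metallothionein genes tested had a median of 0.06.

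Cytokines and chemokines had the highest median of the lists, 1.21 over 11 genes, with 3 at least 2-fold higher on all 3 arrays and 9 higher at any size. The array holds 16 genes of this list, and those below the filter are not in the median. IL6 was at 33.4, 63.3 and 47.5, against 4.9 in unstimulated cells (2.27). It is dim, and its size ran from 1.30 to 3.25 across alternatives. CXCL2, a neutrophil attractant, was bright, at 1456.2, 1677.5 and 1043.4, against 377.6 (1.84). CXCL8, which acts on the same receptor family, was nearly flat through the hour at 1399.7, 1581.3 and 1591.7, against 555.9 (1.44; SD of the 3 differences 0.10). CCL20, which attracts dendritic cells and lymphocytes, was close to unstimulated cells at 20 min and higher later, with 190.1, 510.6 and 764.9 against 126.4. Not all chemokines took part, since CXCL1 was at 1429.7, 1409.9 and 1426.4, against 1253.4 (0.18). Of 13 NF-kB subunits and feedback genes none was 2-fold higher on all 3 arrays and the median was 0.06. Within that list TNFAIP3, a ubiquitin-editing inhibitor of NF-kB, was at 951.9, 1964.9 and 2475.5, against 670.6 (1.31), and NFKBIA differed by 0.47.

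Secreted matrix proteins and growth regulators made up another bright set. CCN2 (connective tissue growth factor) had signals of 1500.5, 3071.9 and 3842.6, against 321.3 in unstimulated cells (a mean difference of 3). CCN1, its close relative, was at 1567.6, 2570.8 and 2810.1, against 593 (1.91). Both were higher at each later time of the hour. Other SRF and YAP targets differed less: RHOB differed by 1.05, TAGLN by 0.37, VCL by 0.19, SRF itself by 0.15 and ACTB by -0.05, and the list of 17 had a median of 0.15. EDN1, the endothelin-1 precursor, was at 207.1, 281 and 369.6, against 71.5 (1.87). ADAMTS1, a secreted metalloproteinase, was dim at 31.3, 76.5 and 53.9, against 10.2 (1.81), and was the only one of 12 plasminogen activation, coagulation and matrix protease genes past the 2-fold rule (list median 0.21). ADM, the precursor of the vasodilator adrenomedullin, was at 652.1, 729.4 and 588.2, against 258.7 (1.32 ± 0.20, SE), and narrowly missed the limma threshold (adjusted p = 0.0547). It was the only one of 11 hypoxia-type genes at least 2-fold higher on all 3 arrays, and that list's median was -0.14. Of the EGF family, the ligand HBEGF differed by 1.07 and EREG by 0.86, while the receptor EGFR (-0.09) and TGFA (0.01) did not stand apart.

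Growth arrest and stress genes held a few high members. GADD45A was at 629.1, 1185.9 and 1299.4, against 275 in unstimulated cells (1.83). GADD45B was at 173.5, 333.3 and 482.5, against 91.9 (1.66). PLK2, a p53-responsive kinase, was at 759.8, 1011.7 and 1136.6, against 356 (1.41). All 3 genes were highest at 60 min. The p53 target list had 2 of 12 at least 2-fold higher and a median of 0.36, with MDM2 at -0.65, and the FOXO list had 1 of 19 and a median of 0.06. The ID and BMP list (12 tested) had no member past the 2-fold rule and a median of 0.38, in which INHBA stood below the unstimulated array at 20 min and above it later (137.6, 418.3 and 546.7, against 167.8).

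Genes of growth and division were mostly at or below the unstimulated level within the hour. Of 22 cell cycle genes, 13 were lower on all 3 serum arrays (31.5% of all genes tested were) and the median was -0.13. TYMS (-0.50), TOP2A (-0.45) and CCND1 (-0.41) were among the lower ones. The MYC network and ribosome biogenesis genes (16 tested) had a median of -0.10, and cholesterol and fatty acid synthesis genes (13 tested) a median of -0.11, with 8 of 13 lower on all 3 arrays and HMGCS1 at -0.49. Interferon response genes were lowest of the lists, with a median of -0.31 and ISG15 at -0.70. No gene of these 4 lists passed the limma threshold. The housekeeping list had a median of 0.04, with POLR2A lowest at -0.76.

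**Figure D3:**
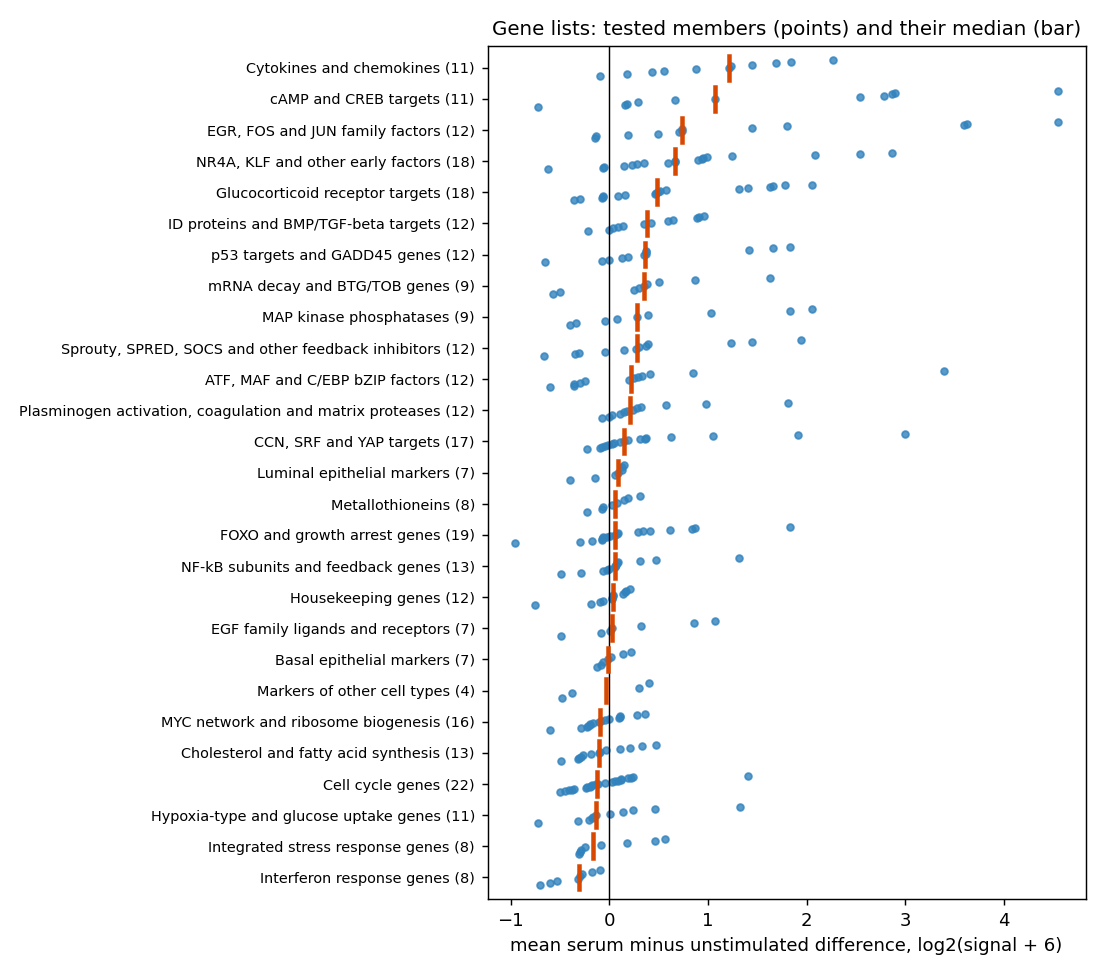
Mean of the 3 serum minus unstimulated differences (horizontal axis, log2(signal + 6) scale) for the tested members of 27 gene lists, with the number tested in brackets. Points are genes and bars are list medians; the medians run from -0.31 (interferon response) to 1.21 (cytokines and chemokines), and most lists carry only a few high members.

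The course within the hour differed between genes. Of the 44 higher genes, 8 peaked at 20 min, 17 at 40 min and 19 at 60 min, whereas 42.6% of all genes tested peaked at 20 min, 26.1% at 40 min and 31.3% at 60 min. Taken singly, the serum arrays had 149 genes at least 2-fold higher at 20 min (1.93%), 102 at 40 min (1.32%) and 146 at 60 min (1.89%), so most genes past 2-fold on 1 array were not past it on all 3. The same held for lower genes, of which there were 99 at 20 min (1.28%), 197 at 40 min (2.55%) and 180 at 60 min (2.33%). Of the 44, 17 had an unstimulated signal under 20 and 16 had a signal of at least 100 on all 4 arrays. The unstimulated array was the lowest of all 13 for 23 of them, against 5.79% of all genes tested. The 44 were picked for a low unstimulated array, so a share above that of all genes follows in part from the rule. Further probe sets past the filter existed for 8 of the 44, and all 13 of these pointed the same way, 9 of them by at least 2-fold on each array. At the edge of the rule stood NUDT6 (smallest difference 1) inside and BMPR1B (0.99) outside. Dim members without a known part in the serum response, such as PRR7 (34.1, 28.4 and 35.9, against 7.9) and SLC22A14 (38.3, 24.5 and 31.9, against 6.3), were also among the 44.

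The 26 lower genes were of another kind. ZC3H7B was at 54.2, 62.2 and 62.5 in serum, against 184.8 in unstimulated cells. The 3 serum arrays lay close together, far below the unstimulated one. It fell by 1.54 on the log2 scale (SE 0.18, limma adjusted p = 0.0301), a 2.91-fold fall. Of its 4 other probe sets, those past the filter on low values differed by -0.16 and 0.05 and those below it by -0.11 each, and averaging all 5 probe sets gave -0.38 with a limma adjusted p of 0.831. The call was also lost with the 4 arrays alone (limma adjusted p = 0.398) and in 5 fits without 1 array, among them serum at 40 min (0.12) and at 60 min (0.0938).

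First by the smallest difference was PMS2P2, a pseudogene of the mismatch repair gene PMS2, with signals of 14, 14.6 and 15.2, against 82.7 in unstimulated cells (-2.11). TNFSF14, the cytokine LIGHT, was first by the mean difference, at 6, 20.1 and 13, against 76 (-2.18). ANKRD36B, an ankyrin repeat gene, was among the brighter ones at 263.3, 207.6 and 249.2, against 705.8 (-1.54, limma adjusted p = 0.0754). HAUS2, a subunit of the augmin complex of the mitotic spindle, was at 262.7, 223.8 and 269.5, against 553.1 (-1.12, limma adjusted p = 0.0547). STAG3L3, a pseudogene of a cohesin subunit gene, was at 31.2, 26.8 and 22.7, against 87.7 (-1.52, limma adjusted p = 0.0547).

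Pseudogenes made up 6 of the 26 (23.1%, against 0.88% of the genes tested), and 1 was a long non-coding RNA. Probe sets with names ending in _x_at, which may also bind other transcripts, stood for 5 of the 26 (19.2%), ZC3H7B and HAUS2 among them. That share was 13.6% for the higher genes and 7.79% for the genes tested. The part of such binding in these falls was not tested. For 23 of the 26 the unstimulated array was the highest of all 13, against 9.83% of the genes tested, and 22 were still at least 2-fold lower after 480 min of serum. The 26 were picked for a high unstimulated array, so a share above that of all genes follows in part from the rule. A fall with serum and a high reading of the lone unstimulated array cannot be told apart for them. Of 6 further probe sets for 5 of these genes, 5 pointed the same way and none was 2-fold lower on every array. In 10 of the 26 at least 1 serum signal was under 20, and in 3 all 4 signals were at least 100. The edge of the rule lay between ZNF324 (-1.01) and L3MBTL1 (-0.97).

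**Figure D4:**
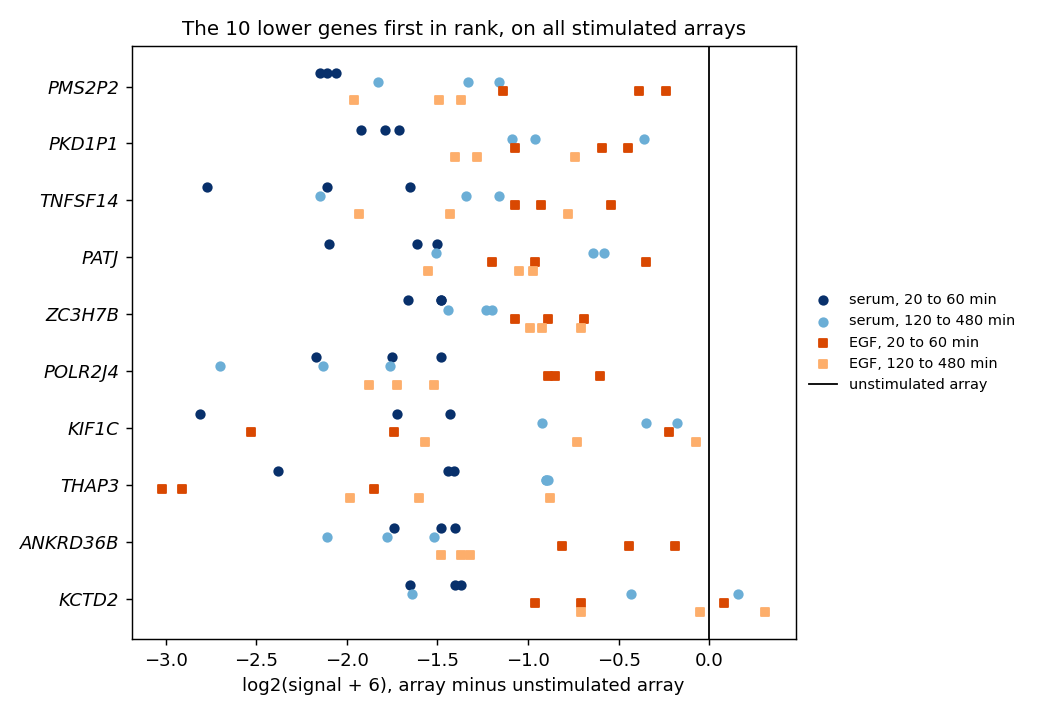
Differences from the unstimulated array (vertical black line at 0; log2(signal + 6) scale on the horizontal axis) on all 12 stimulated arrays for the 10 lower genes first by the smallest of the 3 serum differences. Dark blue and light blue circles are serum in and after the first hour, dark and light orange squares are EGF in and after it; nearly all points lie left of 0, except some of KCTD2.

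The first hour of serum was next set against that of EGF, 3 arrays against 3, which asks where the stimuli differ and does not use the unstimulated array. By limma, 5 genes were higher with serum (0.0647% of the genes tested) and 2 lower (0.0259%). At an unadjusted p under 0.05 there were 1007 (13%). With time as a block, which pairs the serum and EGF arrays of the same time, 2 of the 7 passed: KLF4 and SURF2 (limma adjusted p = 0.0432 for both). The other 5 had blocked adjusted p-values of 0.0932 (DUSP1) and 0.124 (RGS2, CDKN1C, MAN1A1 and PNN), and the p-values given below are without the block. The 7 became 21 without EGF at 20 min, 15 without serum at 20 min, and 1 without any one of the 40 or 60 min arrays. RGS2 was at 454.5, 1338.7 and 1250.6 with serum and at 146.6, 90.6 and 60.4 with EGF. The difference was 3.21 ± 0.39 (SE, limma adjusted p = 0.0166). KLF4 had 278.8, 400.5 and 582 with serum and 79.9, 67.6 and 94 with EGF (2.25 ± 0.31, limma adjusted p = 0.0199). CDKN1C had 65.1, 67.9 and 106.4 with serum and 24.6, 27.9 and 19.8 with EGF (1.49 ± 0.21, limma adjusted p = 0.0199). For these 3 genes the EGF arrays lay within 1 log2 unit of the unstimulated array. Every serum array lay above every EGF array, but the genes were picked by a test on these same arrays. DUSP1 was at 1725.6, 1873.6 and 1458.5 with EGF, a difference of 1.47 ± 0.19 from serum (limma adjusted p = 0.019).

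The other calls were not serum responses by the 2-fold rule. MAN1A1, a Golgi mannosidase, was at 105.2, 110.8 and 97.5 with serum and at 43.8, 40.5 and 41.9 with EGF (1.20 ± 0.17, limma adjusted p = 0.0199), and at 91.9 in unstimulated cells. PNN, a nuclear and desmosome-associated protein, was at 589.1, 574.1 and 568.2 with serum and at 947.2, 958.5 and 884.1 with EGF (-0.68 ± 0.09, limma adjusted p = 0.0196), and at 855.8 in unstimulated cells. SURF2 was dim at 9.1, 8.6 and 9.3 with serum and 31.8, 31 and 45.1 with EGF (-1.47 ± 0.14, limma adjusted p = 0.00329), against 15.2 unstimulated.

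Several large early responses did not pass this test of serum against EGF. ATF3 was at 27.7, 74.8 and 48.9 with EGF (serum minus EGF 2.45 ± 0.55, limma adjusted p = 0.121). FOSB was at 18.1, 35.3 and 51.4 with EGF (2.38 ± 0.72, limma adjusted p = 0.202), and NR4A2 at 9.7, 24.5 and 40.8 (2.14 ± 0.53, limma adjusted p = 0.155). In these 3 genes every serum array was above every EGF array. The share of all genes separated in this way was not counted, so this adds no evidence of a difference. CCN2 was at 1499.3, 3190.2 and 3269.1 with EGF, close to serum at each time (0.06 ± 0.65, limma adjusted p = 0.979), and EGR1 was at 473.5, 984.6 and 908.8 with EGF (-0.47 ± 0.46, limma adjusted p = 0.707). These standard errors are without the time block, so they include change over time. Taken alone, they leave room for sizeable differences for both. Compared time by time, EGR1 was lower with serum than with EGF at each time of the hour. For CCN2 the differences from the unstimulated array were 2.2, 3.23 and 3.56 with serum and 2.2, 3.29 and 3.32 with EGF.

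The first hour of serum was also set against 120, 240 and 480 min of serum, again without the unstimulated array. By limma, 58 genes were higher in the first hour (0.75% of the genes tested) and 46 lower (0.595%), with 1551 at an unadjusted p under 0.05 (20.1%). Of the 44 genes described above, 5 were among those 58. FOSB was at 39.3, 2 and 2.1 at the later times, a difference of 3.81 ± 0.72 (SE, limma adjusted p = 0.0375). ATF3 was at 79.8, 24.4 and 13 (2.98 ± 0.55, limma adjusted p = 0.0375), and NR4A2 at 38.7, 2.8 and 19.3 (2.53 ± 0.53, limma adjusted p = 0.0462). CXCL2 was at 237.2, 277.5 and 342.2 (2.25 ± 0.26, limma adjusted p = 0.00592), below its unstimulated signal of 377.6. In these 4 genes every first hour array was above every later one, but they were picked by a test on these same arrays. The count of 104 genes in both directions was between 4 (without serum at 40 min) and 213 (without serum at 120 min) when 1 array was left out.

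SGK1 was also higher early than late (1.26 ± 0.23, limma adjusted p = 0.0375). PNRC1, a nuclear receptor coactivator and decapping factor, had 443.1, 658.5 and 739.3 in the first hour and 247.3, 196.2 and 171 later (1.54 ± 0.20, limma adjusted p = 0.00858). Among the genes lower early than late, ANGPTL4, an inhibitor of lipoprotein lipase, had 347.5, 434.3 and 532.1 in the first hour and 1555, 2461.7 and 1800.8 later (-2.13 ± 0.22, limma adjusted p = 0.00268). OCLN, the tight junction protein occludin, had 64.2, 54.5 and 56.3 early and 191.2, 239 and 126.4 later (-1.53 ± 0.27, limma adjusted p = 0.0344). Of the 44 higher genes, 13 were still at least 2-fold above the unstimulated array at 480 min of serum. RGS2 (496.5), KLF4 (260.3), CDKN1C (132.9) and IL6 (35.9) were among these, whereas CCN2 was at 501.9 by then, under 2-fold.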

How the data were processed

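Total RNA from each of 13 cell samples was hybridised as biotinylated cRNA to an Affymetrix array, per the labels' protocols. The authors deposited 1 table of linear intensities (signals) for 22277 probe sets. MAS5 is named in the submitters' processing notes, with its version and settings not given in the sources used here; no detection calls were used. The trimmed mean signal was 150.04 to 150.05 on every array. Gene symbols came from GEO's platform annotation: 19064 of 22215 non-control probe sets had 1 symbol, 1043 several and 2108 none. Symbols were checked against RefSeq by Entrez identifier (19052 matched, 0 updated).

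Signals were taken as log2(signal + 6), with no further normalization. The probe set with the highest mean stood for its gene (11963 genes). Genes with a mean over all 13 arrays below the 40th percentile of all non-control probe sets were left out, so that 7731 remained. limma 3.58.1 (R 4.3.3) fitted 5 groups (serum first hour, serum later, EGF first hour, EGF later, unstimulated) over 13 arrays with 8 residual degrees of freedom, and p-values were adjusted by Benjamini-Hochberg over all 7731 genes with a threshold of 0.05. Folds are powers of 2 of log2 differences. The scripts were tested on simulated data. Figures used matplotlib 3.10.9, and summaries pandas 2.3.3.

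Genes named are the 15 higher and 10 lower first by the smallest and by the mean of the 3 differences, up to 4 members of each list with the largest smallest difference, FOS, EGR1, MYC and DUSP1, and the first 5 each way in the comparisons with EGF and with later serum; other list members and near-threshold genes named were chosen after their values were seen. The members and lists were chosen with earlier results of these data known. The number of arrays limits the precision. Alternatives changed the offset, normalization, filter, probe set rule, variance model and arrays used.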

Additional observations from a re-analysis of the deposited data

Results flagged for a closer look

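Between serum and EGF in the first hour, 7 genes differed by a test of the difference itself (limma adjusted p under 0.05 over 7731 genes, 3 arrays against 3). On the log2 scale, serum minus EGF, the differences were 3.21 for RGS2, 2.25 for KLF4, 1.49 for CDKN1C, 1.47 for DUSP1 and 1.20 for MAN1A1, and -1.47 for SURF2 and -0.68 for PNN. With time as a block, KLF4 and SURF2 alone passed. In each of the 7 the 3 serum arrays and the 3 EGF arrays did not overlap. The 7 were picked by a test on these same arrays, so this adds no evidence. RGS2, KLF4, CDKN1C and DUSP1 were at least 2-fold above the unstimulated array on all 3 serum arrays, while MAN1A1, SURF2 and PNN were not past 2-fold either way on all 3.

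A signal also appeared in probe sets that carry no symbol or several and so entered no comparison above. Of 1586 such probe sets past the filter, 5 were at least 2-fold higher on all 3 serum arrays (0.315%) and 39 at least 2-fold lower (2.46%), against 0.569% and 0.336% of the named genes. Of the 39, 34 had no symbol, and for 35 the unstimulated array was the highest of all 13, against 16.5% of the 1586. That excess follows in part from the rule that picked the 39. Their part in the count of lower genes was not tested.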

How the results depend on the processing

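With 1 unstimulated array, calls against it were few and depended on the processing. The count of higher genes, 1 as reported, was 2 with no offset, 5 with 4 times the offset, 4 after quantile normalization, 0 without a filter, 2 with a stricter filter, 0 with the mean of probe sets, 4 with trended and robust variances, 0 with the 4 arrays alone, and 0 to 4 when 1 array was left out. The count of lower genes, also 1, was 8 with 4 times the offset, 4 after quantile normalization, 3 without a filter, 3 with the stricter one, 0 with the mean of probe sets, 15 with trended and robust variances, 0 with the 4 arrays alone, and 0 to 2 when 1 array was left out. The 44 genes at least 2-fold higher became 69 with no offset, 24 with 4 times the offset, 116 without a filter, 24 with the stricter one, and 56 to 78 when 1 serum array was left out. The 26 lower ones became 13, 86 and 8 with 4 times the offset, no filter and the stricter filter, and 31 to 71 when 1 serum array was left out. Leaving out a serum array eases the 2-fold rule, so those counts could not fall. After quantile normalization 41 of the 44 and 23 of the 26 were kept. The 7 genes that differ from EGF became 35 with 4 times the offset, 37 with the stricter filter, 4 with the mean of probe sets, 60 with trended and robust variances, 2 with time as a block, and 1 to 21 when 1 array was left out. The 104 genes that differ from later serum became 182 with 4 times the offset, 15 without a filter, 292 with the stricter one, 396 with trended and robust variances, and 4 to 213 when 1 array was left out. Of 148 named genes, 5 that never passed the threshold changed sign: CEBPD (0.077), HK2 (0.073) and SCD (0.557) with the mean of probe sets, and PGBD5 (-0.128 to 0.242) and PRKAG2 (-0.184 to 0.295) when 1 serum array was left out. The cause of these shifts was not tested. The labels give no replicate numbers, so arrays were paired by time only, and only for serum against EGF.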
